A study of Rattus norvegicus with 44 samples.

Results

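Bhmt, Gnmt, Cth, Sds, Phgdh and Psat1 encode 6 enzymes that carry methyl groups, sulfur and carbon between methionine, cysteine and serine, and their RNA was followed in rat liver under dosing with the compounds R1 and R2. The members were all probe sets of the deposited table whose only annotated gene symbol is in that set, which gave 16 of 8799 probe sets, for 6 of the 4736 genes named by a probe set of 1 symbol. Of the 16, 15 passed a filter on dim signal and were tested. The exception was a further, dim probe set of Psat1 whose highest group mean was 3.01. The brightest probe set of a gene represents it below unless another is named.

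Liver RNA came from male Wistar rats of 8 weeks that received R1, R2 or the vehicle, a citric acid buffer, by gavage once a day and were killed 24 h after the last dose. R1 and R2 are known only by these code names. Study 1 ran for 24 h, with 3 arrays on vehicle and R1 at 10 (4 arrays), 30 (3) and 100 mg/kg/day (3). Study 2 ran for 336 h, with 4 arrays on vehicle and R1 at 20 (5 arrays) and 100 mg/kg/day (4). Study 3 also ran for 336 h, with 5 arrays on vehicle and R1 at 30 mg/kg/day (4 arrays). Study 4 ran for 24 h, with 4 arrays on vehicle and R2 at 300 mg/kg/day (5 arrays). Whether numbered replicates are separate animals is not stated, and p-values here measure only how these arrays spread, in part perhaps technically.

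In the liver, methionine is turned into S-adenosylmethionine, the general methyl donor, and what is left after methyl transfer is homocysteine. Gnmt, glycine N-methyltransferase, spends surplus methyl groups on glycine, and Bhmt, betaine-homocysteine methyltransferase, rebuilds methionine from homocysteine with a methyl group of betaine. Cth, cystathionine gamma-lyase, releases cysteine at the end of transsulfuration, the route that joins the sulfur of homocysteine to the carbon skeleton of serine. Phgdh and Psat1 catalyse successive steps of serine synthesis from a glycolytic intermediate, whereas Sds, serine dehydratase, breaks serine down to pyruvate and ammonia. Bhmt, Gnmt and Sds are abundant in the liver, and Sds is a textbook gene of amino acid use for gluconeogenesis, raised by glucagon and by protein-rich food.

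The promoters of these genes are shown because the enzymes that break down or transfer (Bhmt, Gnmt, Cth) and those that make serine (Phgdh, Psat1) moved in opposite directions with R2. RefSeq's promoter table for the build GRCr8 matched 5 of the 6 genes. Each line gives the 250 bases before the start that this table uses, 5′ to 3′ on the gene's strand. Exact matches to TATAA or CCAAT on either strand are in capitals. RefSeq's gene span begins elsewhere for Gnmt (from 21752235, inside the window) and Psat1 (222623553 to 222646187, with the window inside it). Distances below count from the promoter table's start, which for these genes is not the start of the span.
Bhmt, chr2:26614430-26614679, minus strand: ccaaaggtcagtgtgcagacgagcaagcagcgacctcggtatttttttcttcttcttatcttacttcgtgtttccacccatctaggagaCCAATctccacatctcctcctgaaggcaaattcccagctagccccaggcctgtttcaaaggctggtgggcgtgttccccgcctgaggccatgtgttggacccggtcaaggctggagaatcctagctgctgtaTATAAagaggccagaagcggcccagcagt
Gnmt, chr9:21752032-21752281, plus strand: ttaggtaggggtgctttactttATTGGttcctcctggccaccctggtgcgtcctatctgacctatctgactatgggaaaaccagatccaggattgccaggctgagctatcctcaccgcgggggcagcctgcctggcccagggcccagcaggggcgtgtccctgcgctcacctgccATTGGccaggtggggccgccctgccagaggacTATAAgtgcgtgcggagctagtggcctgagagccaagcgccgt
Cth, chr2:249661067-249661316, minus strand: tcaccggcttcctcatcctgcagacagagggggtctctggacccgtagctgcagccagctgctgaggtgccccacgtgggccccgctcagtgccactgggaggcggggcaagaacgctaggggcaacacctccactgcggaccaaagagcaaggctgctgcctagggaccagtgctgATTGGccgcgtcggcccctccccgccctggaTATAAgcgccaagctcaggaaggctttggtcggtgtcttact
Phgdh, chr2:188624790-188625039, minus strand: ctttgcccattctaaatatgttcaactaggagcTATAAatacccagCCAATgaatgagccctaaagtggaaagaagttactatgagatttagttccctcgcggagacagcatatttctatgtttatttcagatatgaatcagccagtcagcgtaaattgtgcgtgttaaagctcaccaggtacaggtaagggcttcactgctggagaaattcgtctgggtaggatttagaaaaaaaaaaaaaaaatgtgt
Psat1, chr1:222645409-222645658, minus strand: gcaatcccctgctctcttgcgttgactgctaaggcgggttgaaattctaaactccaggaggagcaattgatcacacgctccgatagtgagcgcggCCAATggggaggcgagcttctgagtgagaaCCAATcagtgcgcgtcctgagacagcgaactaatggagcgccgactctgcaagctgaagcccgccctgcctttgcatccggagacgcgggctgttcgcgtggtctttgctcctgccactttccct

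A TATAA match began 29 bases before the start in Bhmt, 42 in Cth and 43 in Gnmt. In Phgdh it lay 217 bases before the start, and Psat1 had 0 matches in this window. CCAAT, or its reverse complement, occurred 161 bases before the start in Bhmt, 228 and 75 in Gnmt, 73 in Cth, 204 in Phgdh, and 155 and 125 in Psat1. Of 33469 promoters of the same length, 24.0% held TATAA and 34.0% held CCAAT on at least 1 strand, and both motifs were chosen after the sequences had been seen. Searched for first, also on both strands, were TGATGNAA (C/EBP-ATF response element), TGACGTCA (cAMP response element), TGACNNNGC (antioxidant response element core) and TGTTCT (glucocorticoid response half-site). They had 0 matches in the 5 windows, against 3.40%, 1.59%, 10.1% and 17.5% of all promoters, and these letters being absent from a short window says nothing about the factors. The motifs searched do not overlap each other in the printed sequences.

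Values are the authors' MAS5 signals, in arbitrary units. Their sorted values are the same in all 44 arrays, so a signal is relative to the other probe sets of its array. Fold changes are on the log2(signal + 2.89) scale, which understates changes of dim genes, and are given ± SE from a limma fit over 6361 probe sets. Called means an adjusted p under 0.05 (limma, Benjamini-Hochberg within a comparison). Arrays of a group correlated between 0.924 and 0.974. The summed signal of 7 hepatocyte markers lay between 46382 and 60904 in all 44 arrays. It was lower than in the vehicle without overlap in study 3 (54376 to 55193 with vehicle, 47961 to 53980 with R1) and in study 1 at 10 and 100 mg/kg/day (58638 to 58853 with vehicle, 56009 to 57756 and 55094 to 56520). Of the 7, Fgb was called lower at 20 and 30 mg/kg/day of R1 for 336 h (-0.57 and -0.87) and Apoa1 higher at 100 and 30 (0.43 and 0.59). Dimmer probe sets were called too: of Ahsg lower at 20, 30 and with R2 (-0.56, -0.37 and -0.30), and of Serpina1 lower at 20 and 30 (-0.32 each). A further one of Ahsg was not called in these groups (0.20, 0.54 and 0.33), and the other one of Apoa1 was higher at 100 and 30 (0.39 and 0.33). Replicate 2 of the 100 mg/kg/day group of R1 at 336 h was picked out from the members' own values. Results that rest on it are given with and without it, and the fits without it are no independent support. The check for distant arrays, given at the end, flagged no array of this group.

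**Figure D1:**
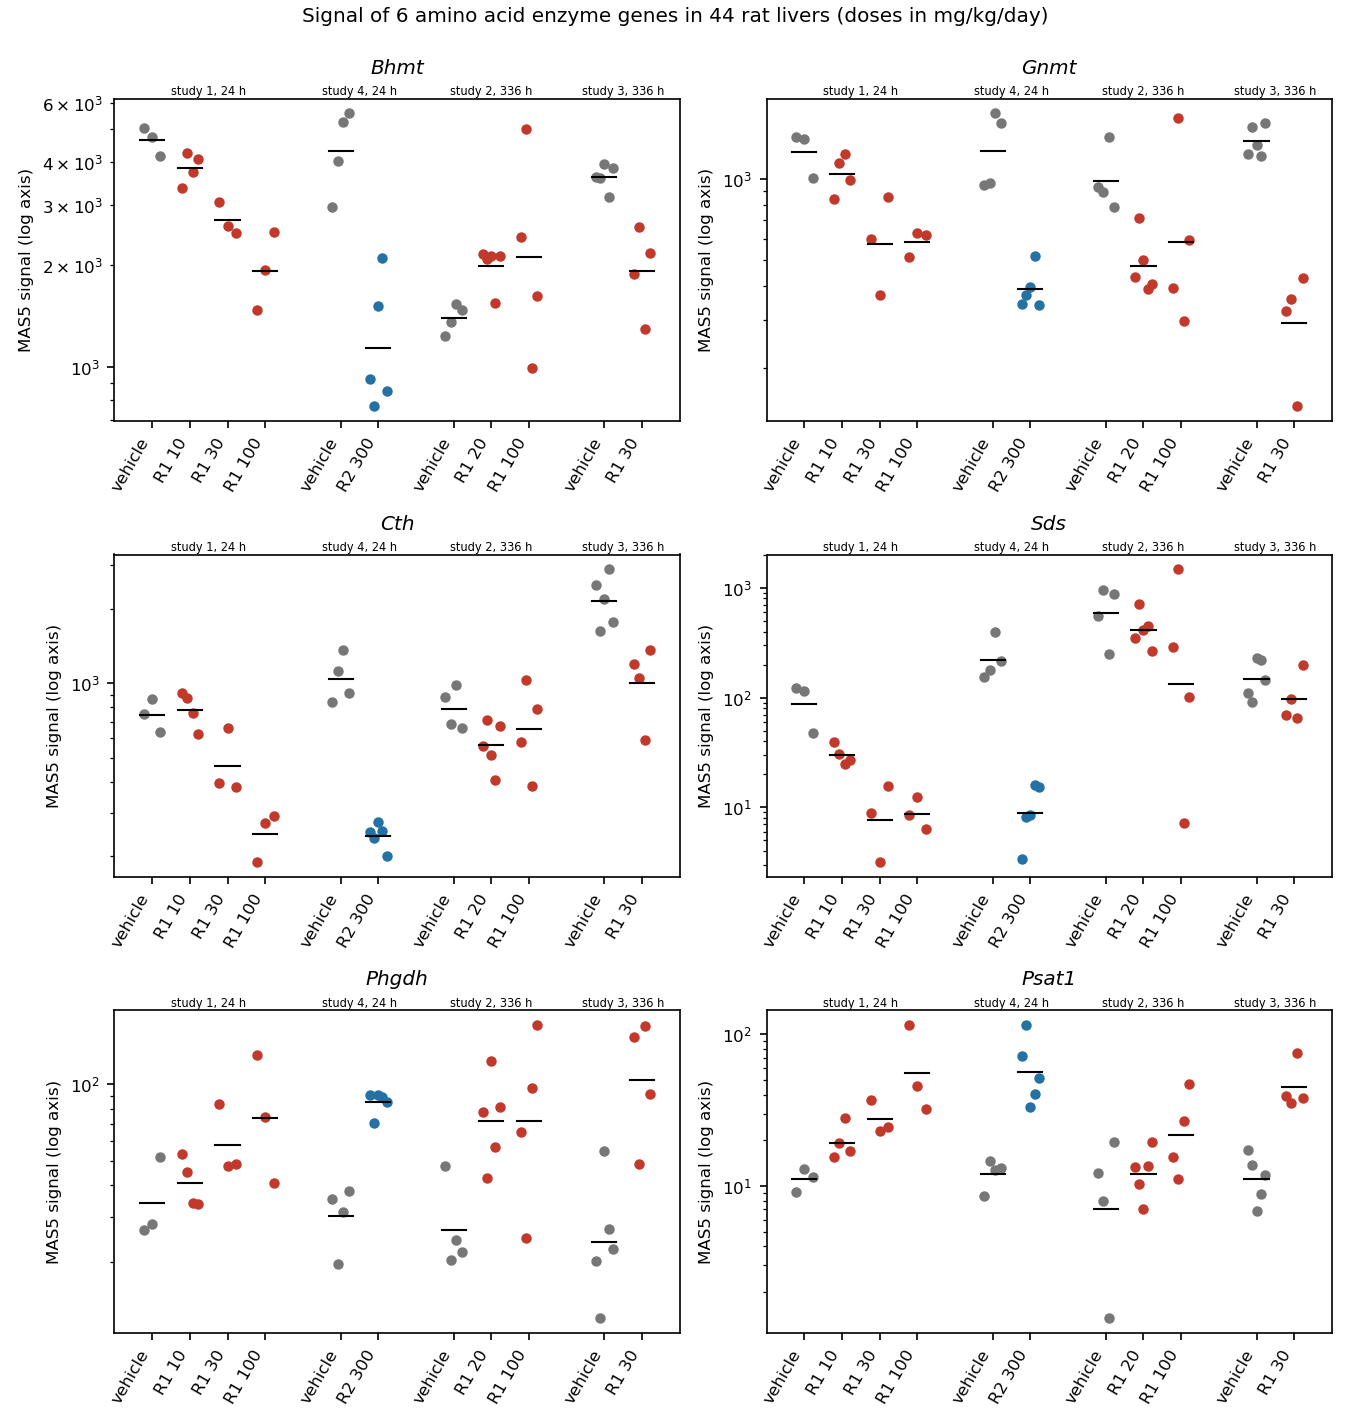
MAS5 signal (log axis, arbitrary units) of each gene's brightest probe set in all 44 arrays, by study and group, with doses in mg/kg/day; grey points are vehicle, red R1, blue R2, and bars are geometric means. Bhmt, Gnmt, Cth and Sds lie below the vehicle and Phgdh and Psat1 above it in each array dosed with R2, whereas the study 2 vehicles (336 h) lie below the study 3 vehicles for Bhmt and Cth and above them for Sds.

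Dosing with 300 mg/kg/day of R2 for 24 h separated the members by role. The enzymes that use methyl groups, homocysteine sulfur or serine fell: Bhmt 3.80-fold, Gnmt 3.23-fold, Cth 4.26-fold and Sds 18.2-fold. The serine-making enzymes Phgdh and Psat1 rose 2.65-fold and 3.98-fold. All 6 genes were called, 4 lower and 2 higher, where 15.3% of the probe sets tested were called (7.44% higher and 7.88% lower). Among the further probe sets tested, a dim one each of Sds (log2 -1.36) and Psat1 (0.98) was not called. A dim probe set of Phgdh, at a mean of 23.9 with R2 and of 2.22 to 3.39 in the 4 vehicle groups, passed the filter only through dosed groups, so its rise is no support.

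Sds had signals of 153, 177, 393 and 217 in the vehicle arrays of study 4 and of 3.42, 8.11, 8.61, 16.0 and 15.3 under R2. The highest R2 array stayed far below the lowest vehicle array. The log2 fold change was -4.18 ± 0.66 (adjusted p = 6.55e-06), and a further probe set of Sds gave -4.06. For Cth the vehicle signals were 842, 1123, 1365 and 909, and the R2 signals 251, 238, 275, 254 and 200. The R2 arrays lay close together (244 ± 27.8, SD, n = 5), and Cth fell by 2.09 on the log2 scale (SE 0.23, adjusted p = 3.72e-09).

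Bhmt signals were 2962, 4045, 5258 and 5585 with vehicle and 923, 765, 1512, 2099 and 848 with R2, a log2 fold change of -1.93 ± 0.27 (adjusted p = 7.23e-07). Gnmt signals were 944, 960, 1746 and 1611 with vehicle and 343, 371, 398, 517 and 340 with R2, a log2 fold change of -1.69 ± 0.31 (adjusted p = 6.87e-05). In both genes no R2 array reached the lowest vehicle array, although the vehicle arrays themselves were widely spread.

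Phgdh, which catalyses the first step of serine synthesis, had vehicle signals of 35.4, 19.6, 31.4 and 38.0 and R2 signals of 90.5, 70.2, 90.9, 89.4 and 85.4. Psat1, the next enzyme, had vehicle signals of 8.53, 14.7, 12.7 and 13.1 and R2 signals of 72.3, 115, 33.1, 40.2 and 51.3. Both rose without overlap between groups, Phgdh by 1.40 ± 0.39 (adjusted p = 0.00830) and Psat1 by 1.99 ± 0.38 (adjusted p = 1.19e-04). The R2 and vehicle arrays did not overlap in any of the 6 genes, as in 13.6% of all probe sets. The markers of bile duct cells moved with these results: of the 6 genes of the list 4 were on the array, their summed signal was 37.3 to 69.0 with vehicle and 77.3 to 105 with R2, and Epcam alone among them was called (1.08 ± 0.30, adjusted p = 0.00845). Acta2, a gene of activated stellate cells, was called lower with R2 (-1.93 ± 0.53, adjusted p = 0.00818), while its other probe sets, at 0.44 and -0.42, were not. The stellate list of 5 genes on the array summed to 533 to 1030 with vehicle and 547 to 642 with R2. The part of these markers in the results was not tested. In whole liver, fewer cells of a type and less RNA per cell cannot be told apart.

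**Figure D2:**
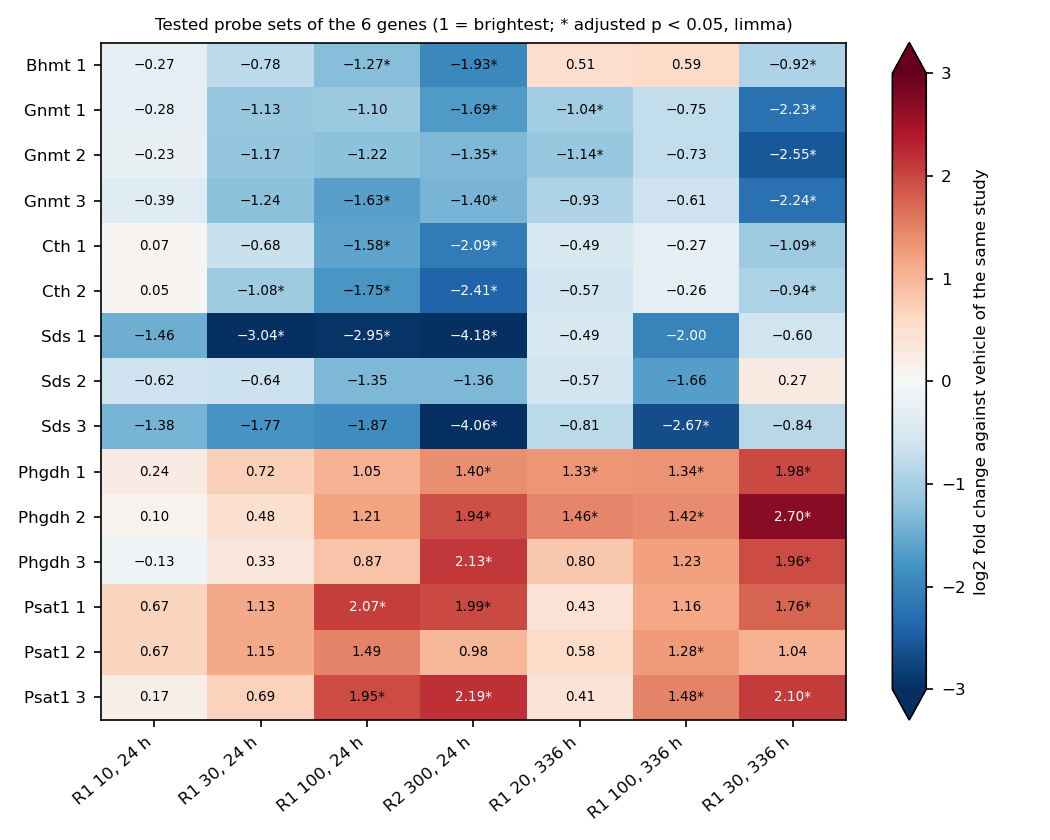
Log2 fold change against the vehicle of the same study for the 15 probe sets tested (rows, numbered from the brightest of each gene) in 7 comparisons (columns, doses in mg/kg/day); an asterisk marks an adjusted p under 0.05. Probe sets of 1 gene had the same sign wherever any of them was called, and the probe sets of Sds spanned -1.36 to -4.18 with R2.

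R1 was given at 3 doses for 24 h in study 1, each set against the same 3 vehicle arrays. At 10 mg/kg/day limma called none of the 6 genes (0 also at an unadjusted p under 0.05), where 1.24% of all probe sets were called (1.04% higher, 0.204% lower). At that unadjusted level were 623 of 6361 probe sets. At 30 mg/kg/day 1 gene was called, Sds, where 1.73% of all probe sets were (1.48% higher, 0.252% lower). The top dose of 100 mg/kg/day had 4 genes called, where 6.4% of all probe sets were (3.96% higher, 2.44% lower): Sds, Bhmt and Cth fell and Psat1 rose. Gnmt (log2 -1.10 ± 0.37, adjusted p = 0.0668) and Phgdh (1.05 ± 0.47, adjusted p = 0.216) were not called there.

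Sds signals were 121, 116 and 48.0 with vehicle, 39.8, 30.7, 24.7 and 27.2 at 10 mg/kg/day, 8.92, 3.15 and 15.8 at 30, and 8.57, 12.4 and 6.35 at 100. No dosed array reached the lowest vehicle array, also at the lowest dose, where the log2 value was -1.46 ± 0.75 (adjusted p = 0.525). Sds fell by 3.04 on the log2 scale at 30 mg/kg/day (SE 0.80, adjusted p = 0.0325), and its value at 100 mg/kg/day was -2.95 ± 0.80 (adjusted p = 0.0156). The dimmer probe sets of Sds gave -0.64 and -1.77 at 30 mg/kg/day and -1.35 and -1.87 at 100, none of them called, and averaging over the probe sets ended both calls (adjusted p = 0.343 and 0.104). The call at 30 mg/kg/day was also lost without vehicle replicate 1 or 2 or dosed replicate 1 or 2 (log2 -2.61 to -3.10, adjusted p = 0.0876 to 0.198), with a larger offset (-2.46, adjusted p = 0.0668) and without a mean-variance trend (adjusted p = 0.0551). That at 100 mg/kg/day was lost without vehicle replicate 1 or 2 or dosed replicate 1 or 3 (-2.73 to -2.93, adjusted p = 0.0538 to 0.0809).

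Cth signals were 753, 861 and 634 with vehicle and 912, 870, 759 and 622 at 10 mg/kg/day, where the groups overlapped (log2 0.07 ± 0.26). They were 396, 662 and 382 at 30 mg/kg/day and 189, 273 and 290 at 100. Cth fell by 1.58 at the top dose (SE 0.28, adjusted p = 1.23e-04) and lay below all vehicle arrays. By the brightest probe sets it was also the member called between 100 and 10 mg/kg/day, at -1.66 ± 0.26 (adjusted p = 6.76e-05), where 3.98% of all probe sets were called (2.31% higher, 1.67% lower). Dimmer probe sets of Gnmt (-1.23, adjusted p = 0.0342) and Psat1 (1.78, adjusted p = 0.0336) were called in that comparison too. At 30 mg/kg/day the brightest probe set of Cth was not called (-0.68 ± 0.28, adjusted p = 0.333), while its second probe set was (-1.08, adjusted p = 0.0475).

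Bhmt signals were 5062, 4766 and 4172 with vehicle, 3357, 4256, 3753 and 4082 at 10 mg/kg/day, 3054, 2604 and 2482 at 30, and 1474, 1931 and 2493 at 100. The 30 mg/kg/day arrays lay below all vehicle arrays without a call (-0.78 ± 0.33, adjusted p = 0.333), and at 100 mg/kg/day Bhmt fell by 1.27 (SE 0.33, adjusted p = 0.0100). That call was lost without vehicle replicate 1 (-1.21, adjusted p = 0.0537) or dosed replicate 1 (-1.08, adjusted p = 0.0885). Between 100 and 10 mg/kg/day the Bhmt value was -1.0 ± 0.31 (adjusted p = 0.0549).

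Gnmt signals were 1427, 1397 and 1001 with vehicle, 839, 1139, 1229 and 989 at 10 mg/kg/day, 599, 372 and 854 at 30, and 512, 631 and 620 at 100. Both upper doses lay below all vehicle arrays. The brightest probe set of Gnmt was not called at either, but 1 of its dimmer probe sets was called at 100 mg/kg/day (-1.63, adjusted p = 0.00355). Fitted on study 1 alone, the brightest was called at both doses (adjusted p = 0.0196 and 0.0109).

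Psat1 signals were 9.13, 12.99 and 11.4 with vehicle, 15.4, 19.1, 28.0 and 16.9 at 10 mg/kg/day, 37.2, 23.0 and 24.6 at 30, and 115, 45.7 and 32.4 at 100. Every dosed array exceeded every vehicle array. Psat1 rose by 2.07 ± 0.46 at 100 mg/kg/day (adjusted p = 0.00210), and the call was lost without dosed replicate 1, the array at 115 (1.57, adjusted p = 0.0556). The values at the lower doses, 0.67 ± 0.43 and 1.13 ± 0.46, were not called (adjusted p = 0.645 and 0.315). Phgdh signals were 26.7, 28.3 and 51.9 with vehicle, 53.3, 45.1, 34.2 and 33.7 at 10 mg/kg/day, 83.3, 47.7 and 48.7 at 30, and 130, 74.1 and 41.0 at 100. Its groups overlapped at every dose, through vehicle replicate 3 at 51.9. Counted over the brightest probe sets, 2 members did not overlap the vehicle at 10 mg/kg/day, 4 at 30 and 5 at 100, where 10.8%, 15.7% and 24.8% of all probe sets did not. The bile duct list overlapped between vehicle (38.4 to 56.9) and 100 mg/kg/day (42.2 to 52.1), and none of its 4 genes was called at the 3 doses.

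At 30 mg/kg/day of R1 for 336 h, in study 3, 5 of the 6 genes were called, where 11.3% of all probe sets were (5.27% higher, 6.01% lower): Phgdh and Psat1 rose and Gnmt, Cth and Bhmt fell. Gnmt signals were 1237, 1548, 1332, 1213 and 1601 with vehicle and 325, 360, 144 and 429 with R1. The groups were far apart, and Gnmt fell 4.69-fold (log2 -2.23 ± 0.31, adjusted p = 6.08e-07), with -2.55 and -2.24 for its other probe sets. Cth signals were 2482, 1628, 2177, 2884 and 1770 with vehicle and 1199, 1045, 591 and 1365 with R1, a fall of 1.09 on the log2 scale (SE 0.23, adjusted p = 7.61e-04).

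Bhmt signals were 3628, 3604, 3958, 3160 and 3862 with vehicle and 1883, 2584, 1292 and 2164 with R1, a log2 fold change of -0.92 ± 0.27 (adjusted p = 0.0190). The call was lost without dosed replicate 3, the array at 1292 (-0.73, adjusted p = 0.135). Of the dosed arrays that one was also the lowest for Cth, Gnmt and Sds and the highest for Psat1 and Phgdh.

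Psat1 signals were 17.1, 13.7, 6.85, 8.91 and 11.7 with vehicle and 39.2, 35.4, 75.3 and 38.0 with R1, a rise of 1.76 ± 0.38 (adjusted p = 8.04e-04) without overlap. Phgdh signals were 20.1, 11.95, 54.7, 27.0 and 22.4 with vehicle and 154, 48.5, 170 and 91.7 with R1. Phgdh rose 3.95-fold (log2 1.98 ± 0.39, adjusted p = 2.44e-04), although vehicle replicate 3 at 54.7 overlapped dosed replicate 2 at 48.5. Sds, the member with the largest fall at 24 h, had signals of 110, 91.1, 229, 220 and 144 with vehicle and of 68.8, 97.5, 64.9 and 200 with R1. The Sds groups overlapped and the value was -0.60 ± 0.66 (95% interval -1.93 to 0.72, adjusted p = 0.694), an interval that takes in both a large fall and a rise. Of the brightest probe sets, 4 did not overlap the vehicle, as 13.9% of all probe sets did not.

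Markers of other cells moved in study 3 as well. The bile duct list summed to 42.7 to 103 with vehicle and 104 to 137 with R1, and Epcam was called higher (1.30 ± 0.30, adjusted p = 0.00186), as it was at 20 and 100 mg/kg/day in study 2 (1.07 and 1.64). In study 2 the list summed to 49.4 to 76.8 with vehicle, 73.3 to 115 at 20 mg/kg/day and 83.5 to 183 at 100. Clec4f, a Kupffer cell receptor, was called lower in all 3 of these groups (-0.82 in study 3, -0.88 and -1.31 in study 2), whereas Cd14, also of the Kupffer list, was called higher at 100 mg/kg/day in study 2 (0.80, and 0.67 for its other probe set). The 3 Kupffer genes on the array, of 6 in the list, summed to 562 to 759 with vehicle and 338 to 483 with R1 in study 3, and in study 2 to 429 to 764 with vehicle, 368 to 481 at 20 mg/kg/day and 376 to 782 at 100. Kdr, an endothelial receptor, was called lower in study 3 (-1.19) and at 100 mg/kg/day in study 2 (-0.91). The 3 endothelial genes on the array, of 6, summed to 46.7 to 59.0 with vehicle and 23.4 to 47.4 with R1 in study 3, and to 55.6 to 79.2 with vehicle and 28.4 to 50.2 at 100 mg/kg/day in study 2. In study 3 the collagen genes Col1a1 (-1.51) and Col3a1 (-1.02) and the red cell genes Alas2 (-1.08) and Hbb (-0.84) were called lower too. The further probe sets of Col1a1 were not called in study 3 (-0.33, -0.35 and -0.66), while that of Col3a1 was (-1.01). The 5 stellate cell genes on the array, of 6, summed there to 247 to 816 with vehicle and 191 to 262 with R1, and the 2 red cell genes, of 5, to 2735 to 4896 and 1227 to 2501. In study 2 the stellate genes summed to 459 to 680 with vehicle, 328 to 401 at 20 mg/kg/day and 272 to 410 at 100, without overlap at either dose. A further probe set of Col3a1 was called lower there at both doses (-0.76 and -0.79), while its brightest was not. The red cell genes summed in study 2 to 5174 to 6913 with vehicle, 4071 to 5504 at 20 mg/kg/day and 2548 to 5016 at 100, the last without overlap. No marker list had a summed signal of 0 in any group, and the part of these markers in the members' results was not tested.

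In study 2 the doses of 20 and 100 mg/kg/day for 336 h shared 4 vehicle arrays. At 20 mg/kg/day 2 genes were called, where 4.43% of all probe sets were (2.55% higher, 1.89% lower): Phgdh rose and Gnmt fell. Phgdh signals were 47.9, 20.3, 24.3 and 21.8 with vehicle and 77.9, 42.8, 123, 56.8 and 81.1 at 20 mg/kg/day, a rise of 1.33 ± 0.39 (adjusted p = 0.0340). Gnmt signals were 929, 894, 1427 and 786 with vehicle and 434, 716, 500, 389 and 409 at 20 mg/kg/day, a fall of 1.04 on the log2 scale (SE 0.31, adjusted p = 0.0370). All dosed arrays lay below the vehicle for Gnmt, while Phgdh overlapped through vehicle replicate 1.

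Both calls depended on single arrays. That of Phgdh was lost without vehicle replicate 2, 3 or 4 or dosed replicate 1, 3 or 5 (1.14 to 1.30, adjusted p = 0.0647 to 0.129) and in a fit of study 2 alone (adjusted p = 0.105). That of Gnmt was lost without vehicle replicate 1, 2 or 3 or dosed replicate 1, 3, 4 or 5 (-0.86 to -1.08, adjusted p = 0.0607 to 0.183), in a fit of study 2 alone (adjusted p = 0.156) and with no filter or no trend (adjusted p = 0.0525 and 0.0614). Of the brightest probe sets, 2 did not overlap the vehicle, Gnmt and Bhmt, as 8.30% of all probe sets did not.

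With all 4 arrays at 100 mg/kg/day for 336 h only Phgdh was called, where 10.3% of all probe sets were (5.11% higher, 5.2% lower). All 6 genes overlapped the vehicle there, whereas 14.6% of all probe sets did not overlap it. Phgdh signals were 65.0, 24.7, 96.9 and 171, a rise of 1.34 ± 0.41 over the vehicle (adjusted p = 0.0239), and array 2 lay among the vehicle arrays. This call was lost without vehicle replicate 2, 3 or 4 or dosed replicate 3 or 4 (0.94 to 1.30, adjusted p = 0.0600 to 0.172) and in a fit of study 2 alone (adjusted p = 0.0712). Sds signals were 556, 958, 249.2 and 876 with vehicle and 291, 1480, 7.27 and 101 at 100 mg/kg/day, so that array 2 exceeded every vehicle array while array 3 was far below the lowest. Gnmt signals of 393, 1671, 299 and 591 showed the same order at the top, with array 2 above every vehicle array and the others below. Psat1 signals were 12.1, 7.96, 1.33 and 19.5 with vehicle and 15.6, 11.05, 26.7 and 47.2 at 100 mg/kg/day, with array 2 the lowest of the dosed arrays.

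With all arrays the values were -2.003 ± 0.69 for Sds (adjusted p = 0.0562), -0.75 ± 0.32 for Gnmt (adjusted p = 0.155) and 1.16 ± 0.40 for Psat1 (adjusted p = 0.0523), none called. Without array 2 they were -3.12 ± 0.60 (adjusted p = 1.90e-04), -1.25 ± 0.28 (adjusted p = 0.00156) and 1.44 ± 0.42 (adjusted p = 0.0171), and Phgdh was 1.83 ± 0.40 (adjusted p = 9.38e-04), so that 4 genes were called. Array 2 was left out after its values were seen. Array 3 lay on the other side of the vehicle mean, at log2 -5.85 for Sds and -1.71 for Gnmt, where array 2 was at 1.34 and 0.76. The call of Sds was also gained without vehicle replicate 3 (-2.41, adjusted p = 0.0291) or dosed replicate 1 (-2.34, adjusted p = 0.0382), and that of Psat1 without vehicle replicate 1 or 4 or dosed replicate 1 (1.30 to 1.496, adjusted p = 0.0119 to 0.0477). Over all probe sets array 2 correlated at 0.967 with the mean of the other 100 mg/kg/day arrays, whose own values were 0.962 to 0.967. Of the 4 it was the array most like the vehicle mean (0.947 against 0.931 to 0.939) and most like the mean at 20 mg/kg/day (0.963 against 0.953 to 0.958). The number of probe sets called was 656 with it and 662 without it. A further probe set of Sds was called with all arrays (-2.67, adjusted p = 0.0239), as were both dimmer tested probe sets of Psat1 (1.28 and 1.48).

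**Figure D3:**
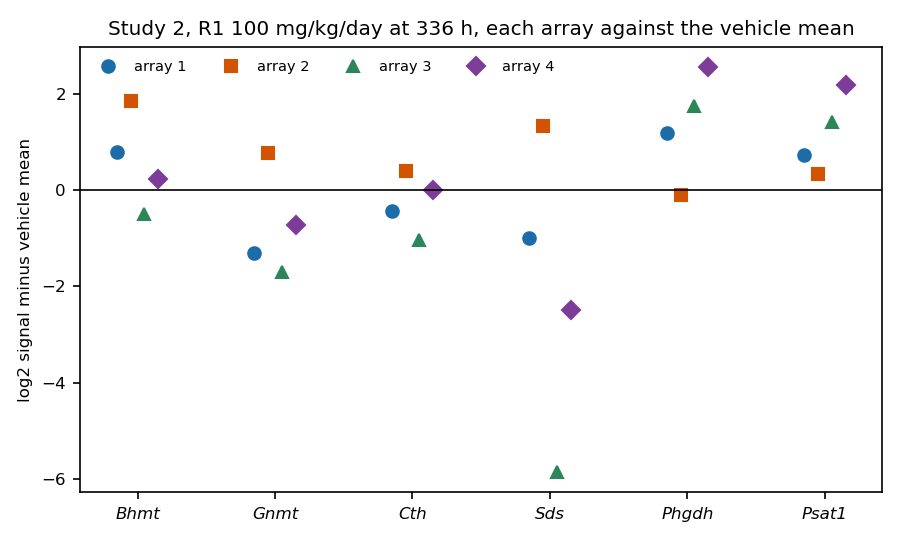
Log2(signal + 2.89) of the 4 arrays at 100 mg/kg/day of R1 for 336 h minus the mean of the 4 vehicle arrays of study 2, for each gene's brightest probe set. Array 2 is highest for Bhmt, Gnmt, Cth and Sds and lowest for Phgdh and Psat1, and array 3 is the lowest for Bhmt, Gnmt, Cth and Sds (-5.85 for Sds).

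Cth and Bhmt were not called in study 2 at either dose. Cth signals were 879, 683, 979 and 658 with vehicle, 560, 710, 513, 405 and 675 at 20 mg/kg/day (-0.49 ± 0.23, 95% interval -0.96 to -0.02) and 579, 1032, 384 and 785 at 100 mg/kg/day (-0.27 ± 0.24, 95% interval -0.77 to 0.22). Without array 2 the Cth value at 100 mg/kg/day was -0.50 ± 0.25 (adjusted p = 0.259), and without array 3 it was -0.02 ± 0.25 (adjusted p = 0.983). Bhmt signals were 1233, 1356, 1533 and 1474 with vehicle, 2153, 2077, 2122, 1538 and 2122 at 20 mg/kg/day, and 2411, 5010, 992 and 1623 at 100 mg/kg/day. Bhmt thus stood above the vehicle in every array at 20 mg/kg/day, but neither dose was called (0.51 ± 0.27, adjusted p = 0.392, and 0.59 ± 0.29, adjusted p = 0.222). It was called higher at 100 mg/kg/day without dosed replicate 3 (0.95, adjusted p = 0.0166), and without array 2 the value was 0.17 ± 0.26 (adjusted p = 0.800).

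Between 100 and 20 mg/kg/day at 336 h none of the 6 genes was called by limma (1 at an unadjusted p under 0.05, Sds), where 4.07% of all probe sets were (2.09% higher, 1.98% lower). At that unadjusted level were 814 of 6361 probe sets. The Sds value was -1.51 ± 0.66 with all arrays (adjusted p = 0.286) and -2.63 ± 0.57 without array 2 (adjusted p = 0.00236).

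The effect of R1 at a dose given in 2 studies was compared between times by subtracting the 24 h effect from the 336 h effect, so that time and study cannot be told apart. For 100 mg/kg/day Bhmt and Cth were called, where 5.3% of all probe sets were (2.17% higher, 3.13% lower). For Bhmt the effect was -1.27 at 24 h and 0.59 at 336 h, a difference of 1.86 ± 0.44 (adjusted p = 0.00496), and it held without array 2 (1.45 ± 0.38, adjusted p = 0.0150). For Cth the effects were -1.58 and -0.27, a difference of 1.31 ± 0.37 (adjusted p = 0.0267). The Cth call was lost without vehicle replicate 1 or 2 or dosed replicate 1 of study 1, or vehicle replicate 2 or 4 or dosed replicate 2 or 4 of study 2 (1.09 to 1.30, adjusted p = 0.0523 to 0.116). At 30 mg/kg/day limma called none of the 6 genes (3 at an unadjusted p under 0.05), where 0.959% of all probe sets were called (0.503% higher, 0.456% lower). At that unadjusted level were 629 of 6361 probe sets. The 336 h minus 24 h values there were 2.44 ± 1.04 for Sds (adjusted p = 0.392), -1.10 ± 0.48 for Gnmt (adjusted p = 0.414) and 1.26 ± 0.61 for Phgdh (adjusted p = 0.480). At 336 h the effect of 30 mg/kg/day in study 3 minus that of 20 mg/kg/day in study 2 was not called for any of the 6 (3 at an unadjusted p under 0.05), where 0.629% of all probe sets were called. The share of all probe sets at that unadjusted level was not taken.

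The vehicle arrays themselves differed between the 336 h studies. Study 3 against study 2 had 3 of the 6 genes called, where 17.8% of all probe sets were (8.55% higher, 9.29% lower): Bhmt and Cth were higher and Sds was lower. Bhmt had a mean signal of 3642 ± 309 (SD, n = 5) in the former and 1399 ± 133 (SD, n = 4) in the latter, a difference of 1.38 ± 0.27 (adjusted p = 1.95e-04). Mean Cth signal was 2188 ± 514 and 800.0 ± 155, a difference of 1.44 ± 0.23 (adjusted p = 1.16e-05), and mean Sds signal was 159 ± 62.9 and 660 ± 324, a difference of -1.96 ± 0.66 (adjusted p = 0.0320). The Sds call was lost without vehicle replicate 1, 2 or 4 of study 2 or 1, 2 or 5 of study 3 (-1.72 to -1.98, adjusted p = 0.0527 to 0.110). The dosed groups of these studies lay closer together for Bhmt than their vehicles, with means of 2002 ± 261 at 20 mg/kg/day, 2509 ± 1766 at 100 and 1981 ± 542 at 30. Between the 24 h vehicles of studies 4 and 1 limma called none of the 6 genes (0 at an unadjusted p under 0.05), where 5.64% of all probe sets were called (2.63% higher, 3.02% lower). At that unadjusted level were 1231 of 6361 probe sets. The interval there was widest for Sds (-0.22 to 2.80).

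R1 and R2 were given at different doses, so their values are set side by side without a comparison. At 24 h Sds was at -2.95 under 100 mg/kg/day of R1 and -4.18 under 300 mg/kg/day of R2, Cth at -1.58 and -2.09, Bhmt at -1.27 and -1.93, Gnmt at -1.10 and -1.69, Phgdh at 1.05 and 1.40, and Psat1 at 2.07 and 1.99.

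The other enzymes of the pathways were read from lists chosen by function, in which the members are included. The share of all probe sets called in each comparison, to be set beside the list counts, is given above. Among 13 genes of the methionine cycle and methyl groups, 5 fell and 1 rose with R2 (median log2 fold change -0.29, against -0.05 over all probe sets). Besides Bhmt and Gnmt, Chdh, which makes betaine aldehyde from choline, fell by 0.73, while Amd1, which draws S-adenosylmethionine into polyamine synthesis, rose by 0.72. At 30 mg/kg/day of R1 for 336 h 5 also fell and 1 rose (median -0.46, against -0.01). There Ahcy, which splits S-adenosylhomocysteine, fell by 0.92 and Amd1 rose by 1.17. Amd1 was also the riser at 100 mg/kg/day for 24 h (1.11 ± 0.29, adjusted p = 0.0100), beside the fall of Bhmt. In study 2, 3 of the 13 fell at 20 mg/kg/day and 2 at 100, with none called higher. Pemt, which makes phosphatidylcholine with S-adenosylmethionine, fell in both (-0.68 and -0.54), and Ahcy fell at 100 mg/kg/day (-1.09 ± 0.24, adjusted p = 0.00123). At 10 and 30 mg/kg/day for 24 h none of the 13 was called.

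The same list differed between the 336 h vehicles, with 6 of 13 higher in study 3 and none lower (median 0.55). Over all probe sets 8.55% were called higher and 9.29% lower (median 0.02). Besides Bhmt these included Dmgdh and Sardh, which oxidise dimethylglycine and sarcosine (1.46 and 0.95), and Chdh (1.34).

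Among 11 genes of transsulfuration and cysteine metabolism, 6 fell and 2 rose with R2 (median -0.46, against -0.05 over all probe sets). Cdo1, which oxidises cysteine, fell by 1.26 and Got1, a cytosolic aminotransferase, fell by 1.65, whereas the glutamate-cysteine ligase subunits that spend cysteine on glutathione rose (Gclm 1.23 ± 0.23, adjusted p = 1.29e-04). Under R1 for 24 h Gclc, the catalytic subunit, was by the brightest probe sets the gene of this list called at 10 and 30 mg/kg/day (1.21 and 1.40). The 100 mg/kg/day group had Gclc (1.38) and Gclm (1.15) called higher and Cth, Cdo1 (-0.81) and Mpst (-0.76, outside the rule for named genes) called lower. At 336 h 4 of the 11 fell and 2 rose at 30 mg/kg/day, with Cdo1 at -1.01, Csad, which makes a taurine precursor, at 1.04 and Gclm at 0.77. In study 2, 2 fell and 2 rose at 100 mg/kg/day (Got1 -1.34, Cdo1 -0.87, Gclm 1.00, Tst 0.54). At 20 mg/kg/day Cbs, the enzyme before Cth, was the sole gene called by the brightest probe sets (-0.78 ± 0.17, adjusted p = 0.00247). A further probe set of Gclm was called higher at that dose (0.84, adjusted p = 0.0194, limma), and another was not (0.68).

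**Figure D4:**
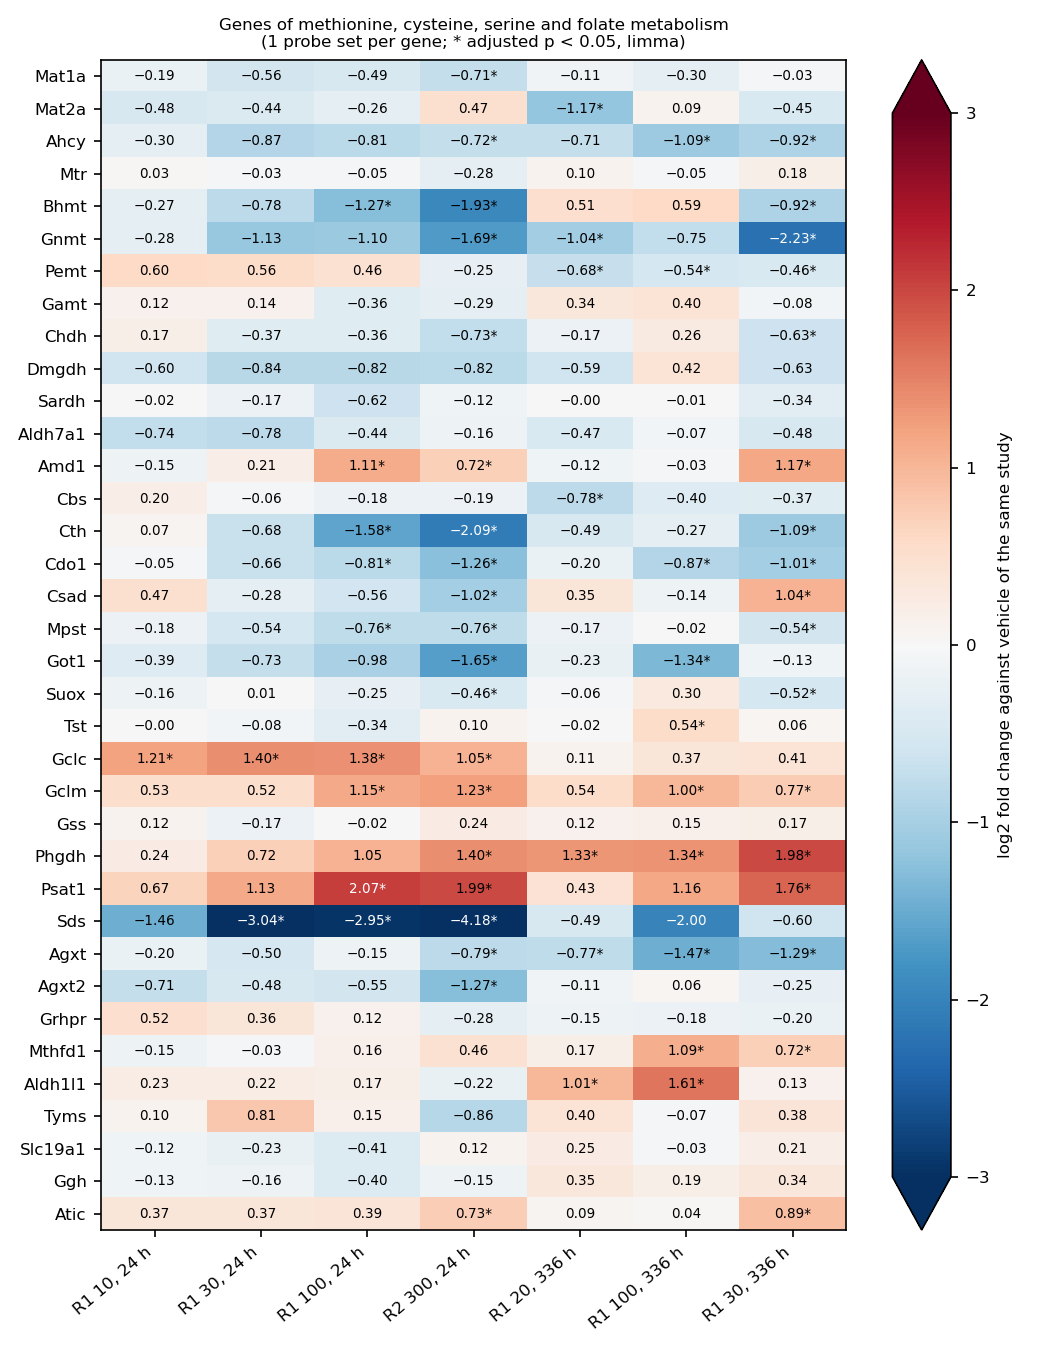
Log2 fold change against the vehicle of the same study for the genes of methionine, cysteine, serine and folate metabolism on the array (rows, 1 probe set a gene) in 7 comparisons (columns, doses in mg/kg/day); an asterisk marks an adjusted p under 0.05. Gclc is higher at all 3 doses of R1 for 24 h and the probe set shown for Agxt is lower in all 3 groups of R1 for 336 h and with R2, where other probe sets of Agxt disagreed.

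Of the serine and glycine list 6 of 21 genes were on the array. Besides the members, Agxt, which converts glyoxylate to glycine, fell at 20, 100 and 30 mg/kg/day of R1 for 336 h (-0.77, -1.47 and -1.29) and with R2 (-0.79, outside the rule for named genes). With R2 its 5 other probe sets disagreed, at -0.79 (called), -0.37, -0.02, 0.01 and 0.32. Agxt2, a mitochondrial aminotransferase, fell with R2 (-1.27 ± 0.29, adjusted p = 0.00126). Among 6 folate genes none fell in the 7 comparisons with vehicle. Aldh1l1, which oxidises formyl-tetrahydrofolate, rose at 20 and 100 mg/kg/day in study 2 (1.01 and 1.61), Mthfd1 at 100 mg/kg/day in study 2 and in study 3 (1.09 and 0.72), and Atic, an enzyme of purine synthesis, in study 3 and with R2 (0.89 and 0.73). The other probe set of Atic did not share this (-0.12 and -0.65, not called). Aldh1l1 also differed between the 336 h vehicles, by 1.82 ± 0.18 (adjusted p = 1.42e-10), with a mean signal of 787 in study 3 and 220 in study 2.

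Phgdh, Psat1 and Cth are known targets of ATF4, the transcription factor of the amino acid response. Of 11 ATF4 targets tested, 6 rose and 1 fell with R2 (median 0.83, against -0.05 over all probe sets), and the gene that fell was Cth. Besides Psat1 and Phgdh these included Trib3, a pseudokinase (1.75 ± 0.45, adjusted p = 0.00442), and Slc3a2, a subunit of amino acid transporters (1.63 ± 0.22, adjusted p = 1.91e-07). The other probe set of Trib3 was not called (1.00), while that of Slc3a2 was (1.92). Under R1 at 100 mg/kg/day for 24 h Psat1 and Slc3a2 (1.77) rose and Cth fell, but the other probe set of Slc3a2 was not called (0.98). A further probe set of Cebpb, also on the list, was called higher at this dose (1.28), while its brightest was not called. In study 3 Phgdh, Psat1 and Slc3a2 (1.37) rose and Cth fell. In study 2 Phgdh was the gene called at 20 mg/kg/day, and Phgdh and Slc7a5 (0.71) rose at 100 mg/kg/day.

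Sds belongs to the genes that glucagon and glucocorticoids raise. Of 13 such genes 6 fell and none rose with R2 (median -0.87, against -0.05), among them Sds, Got1, Cps1, the entry enzyme of the urea cycle (-1.68), and Hal, which breaks down histidine (-1.19). With 100 mg/kg/day of R1 for 24 h 4 fell and none rose, Sds, Hal (-1.08), Cps1 (-1.05) and Ass1 (-0.92). The further probe sets of Hal disagreed there, at -0.39 and 0.95, neither called. At 336 h, 4 fell at 20 mg/kg/day, 6 fell and 1 rose at 100, and 5 fell at 30. Those at 100 mg/kg/day included Pck1, a gluconeogenic enzyme (-2.25 ± 0.43, adjusted p = 1.56e-04), and Asl (-1.70). The brightest probe set of Hal was called lower in all 3 of these groups (-0.98, -1.52 and -1.71). A further one was called lower at 100 and 30 mg/kg/day for 336 h (-1.67 and -2.09) and with R2 (-1.18). At 20 mg/kg/day it was not called (-0.994). The other was not called at 20, 100 or 30 mg/kg/day for 336 h (0.177, 0.0231 and -0.996) or with R2 (-0.138).

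Over the 44 arrays, with each study's mean removed, the members fell into opposing sets. Pearson's r among Bhmt, Cth, Gnmt and Sds was 0.68 to 0.81, r between these and Phgdh or Psat1 was -0.56 to -0.79, and r between Phgdh and Psat1 was 0.69. With each group's mean removed these values were smaller in size, at 0.41 to 0.72 among the first 4, -0.23 (Psat1 and Sds) to -0.50 (Bhmt and Psat1) between the sets, and 0.28 for Phgdh and Psat1. The genes most like each member by r over these arrays were Cd81 (0.85), Cth (0.81) and Otc (0.78) for Bhmt, Gls2 (0.86), Cps1 (0.85) and Ass1 (0.85) for Gnmt, and Acox2 (0.89), Ivd (0.84) and Cps1 (0.83) for Cth. For Sds they were Got1 (0.85), Cps1 (0.77) and Ass1 (0.76), for Phgdh Asns, Psmb1 and Gaa (0.79 each), and for Psat1 Slc3a2 (0.85), Psma7 (0.82) and Apex1 (0.81). These are descriptions: the arrays share their treatments and their joint normalization, and each study mean removed was taken over vehicle and dosed arrays together. Probe sets of 1 gene correlated at 0.95 to 0.97 for Gnmt and 0.96 for Cth, but at 0.62 to 0.85 for Psat1 and 0.73 to 0.91 for Sds.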

How the data were processed

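Liver RNA of 44 samples was measured on Affymetrix rat arrays, 1 array per sample. The authors deposited MAS5 intensity values, per the submitters' processing notes, with no version given. Their sorted intensity values are identical in all arrays (difference 0), so they had been quantile normalized together, a step not given in the sources used here. Of 8799 probe sets, 59 controls were left out. 7006 had 1 gene symbol in the platform annotation, 308 several and 1426 none. Log2 was taken of the signal plus 2.89 (percentile 20 of all values), and 6361 probe sets (3693 genes) whose highest group mean reached 9.17 (percentile 40) were tested. Limma 3.58.1 (R 4.3.3) fitted 1 mean for each of 11 groups with a mean-variance trend and 2-sided tests. Benjamini-Hochberg adjustment ran within each comparison. The procedure was checked on simulated data. The number of arrays limits the precision, and detection calls were not used.

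All tested probe sets of the members were plotted, and the brightest of each gene was described. From each pathway list counts were given, with up to 4 called genes by size, and for each member the 3 genes of highest r. Members, lists and tests were chosen with earlier results of these data known. Alternatives were other offsets, no filter, each study alone, no trend, a replicate block, probe sets averaged, arrays centred or weighted by quality, and each array left out. The comparison of 30 with 20 mg/kg/day effects at 336 h, the motifs TATAA and CCAAT, and correlations with group means removed were chosen after seeing the data. RefSeq (GRCr8) gave the promoters. Python 3.11.15 with pandas 2.3.3 and matplotlib 3.10.9 made tables and plots.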

Additional observations from a re-analysis of the deposited data

Results flagged for a closer look

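The difference between the effects of R1 at 100 mg/kg/day at 336 h and at 24 h was called by limma for Bhmt (1.86, adjusted p = 0.00496) and for Cth (1.31, adjusted p = 0.0267). Bhmt also went opposite ways at 336 h: all 5 arrays at 20 mg/kg/day lay above the study 2 vehicles, and all 4 arrays at 30 mg/kg/day lay below the study 3 vehicles. The dosed means were alike, at 2002 and 1981, while the vehicle means were 1399 and 3642 and differed by call. At 20 mg/kg/day the lowest array, replicate 4 at 1538, was barely above the highest vehicle array at 1533. The difference between the effects at 30 and 20 mg/kg/day, tested after it was seen, was -1.43 ± 0.38 and was not called (adjusted p = 0.0688, limma). In that comparison 0.629% of all probe sets were called.

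In 48 sets of 4 or 5 arrays (6 genes in 8 groups), 3 held an array far from the others, about what chance gives at 1 in 20 sets. Bhmt at 20 mg/kg/day of R1 for 336 h had replicate 4 at 1538 and the others at 2077 to 2153. Phgdh with R2 had replicate 2 at 70.2 and the others at 85.4 to 90.9. Psat1 at 30 mg/kg/day of R1 for 336 h had replicate 3 at 75.3 and the others at 35.4 to 39.2.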

How the results depend on the processing

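Under all alternatives and with each array left out in turn, the 6 genes stayed called with R2, as did Gnmt, Cth, Psat1 and Phgdh at 30 mg/kg/day for 336 h and Cth at 100 mg/kg/day for 24 h. Member genes called at 30 mg/kg/day for 24 h, 1 in the main fit, were 0 with a larger offset, without a trend or with probe sets averaged, and 3 with each study fitted alone. In that order 108 and 88 of 6361, 48 of 3696 and 120 of 6361 features were called, against 110 in the main fit. At 20 mg/kg/day for 336 h (2) the member genes called were 1 without the filter or the trend and 0 with each study alone. Features called were 261 of 8740, 254 of 6361 and 219 of 6361 (main 282). At 100 mg/kg/day for 336 h (1) the member genes called were 2 with a smaller offset or quality weights, 3 with probe sets averaged and 0 with each study alone. Features called were 649 and 700 of 6361, 403 of 3696 and 587 of 6361 (main 656). Between 100 and 10 mg/kg/day (1) the member genes called were 2 with a larger offset, probe sets averaged or weights and 4 with study 1 alone. Features called were 262 of 6361, 144 of 3696, 380 of 6361 and 225 of 6361 (main 253).

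With single arrays left out, the member counts ran from 0 to 1 at 30 and 1 to 4 at 100 mg/kg/day for 24 h, from 0 to 2 at 20, 0 to 4 at 100 and 4 to 5 at 30 mg/kg/day for 336 h, and stayed at 6 with R2. Of 6361 probe sets, 73 to 110 and 263 to 376 were then called at these 24 h doses and 793 to 1093 with R2. At 336 h 208 to 272, 546 to 662 and 453 to 672 probe sets were called. Member counts ran from 1 to 3 between 100 and 10 mg/kg/day, 0 to 1 between 100 and 20, 1 to 2 for the 100 mg/kg/day effect between times and 2 to 3 between the 336 h vehicles. Probe sets called in these ran from 124 to 276, 198 to 257, 237 to 371 and 909 to 1090. Member counts stayed at 0 at 10 mg/kg/day, for the 30 mg/kg/day effect between times and between the 24 h vehicles. There 37 to 95, 30 to 61 and 193 to 291 probe sets were called. Where an alternative gave fewer calls the cause was not tested, except that averaging probe sets tests fewer features.

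Signs turned in these uncalled values, whose ranges with single arrays left out are given. Between 100 and 20 mg/kg/day at 336 h Bhmt ran from -0.34 to 0.44 and Gnmt from -0.21 to 0.61 (lowest without dosed replicate 2 at 100 mg/kg/day, highest without replicate 3), and Phgdh from -0.39 (without replicate 4) to 0.50 (without replicate 2). For the 100 mg/kg/day effect between times Gnmt ran from -0.15 to 0.67 and Sds from -0.16 to 2.23 (without the same replicates 2 and 3). Psat1 ran from -0.033 to 0.77 at 20 mg/kg/day and from -0.13 to 0.68 between the 336 h vehicles (without vehicle replicates 3 and 4 of study 2), where averaging probe sets gave -0.12.

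The replicate block left 1 member gene called at 20 mg/kg/day (main 2), with Gnmt no longer called (-0.98, adjusted p = 0.0767), and 2 at 100 mg/kg/day (main 1) for 336 h, with Sds called (adjusted p = 0.0260), and other counts within 1.5 times. Of 6361 probe sets the block called 283 at 20 mg/kg/day (main 282) and 664 at 100 (main 656) for 336 h. Same-numbered arrays correlated in their deviations at -0.09 to 0.11, and every value in study 2 was positive (0.03 to 0.11). In groups this small such values cannot show whether same-numbered samples share more than a number.

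Over all probe sets, quality weights raised the calls from 407 to 633 at 100 mg/kg/day for 24 h, from 282 to 452 at 20 mg/kg/day for 336 h, from 253 to 380 between 100 and 10 mg/kg/day and from 359 to 714 between the 24 h vehicles. Averaging probe sets lowered the counts but over fewer features, with 598 of 3696 gene averages called for R2 against 974 of 6361 probe sets. Dim signal limits the precision of Psat1 and of Sds in dosed arrays.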
